A study of Mus musculus with 11 samples.

Results

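The genes described here encode the proteins of the cytosolic ribosome and the core elongation factors, measured in CD31hi EMCNhi endothelial cells of mouse bone marrow. They were chosen by name: rows whose symbol began with Rpl or Rps and a digit, without Rps6k kinases, predicted genes and rows named as pseudogenes, together with Rplp0, Rplp1, Rplp2, Rpsa, Eef1a1, Eef1b2, Eef1g and Eef2. Of the 27179 rows of the count table, 95 carried such a name, and 88 had at least 10 reads in at least 3 libraries. These 88 members comprised 41 proteins of the large subunit, 30 of the small subunit, the 3 proteins of the stalk (Rplp0, Rplp1 and Rplp2), 4 elongation factors and 10 paralogues or retrocopies. The 7 rows below the read minimum were Rpl10l and Rpl3l, which had 0 reads, Rpl31, Rpl39, Rpl39l, Rps13 and Rps19bp1, the last of which encodes a binding partner of a ribosomal protein rather than a ribosomal protein.

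BALB/c mice of 8 to 10 weeks bore bone metastases of 4T1.2, a mammary tumour line of the same strain marked with red fluorescent protein. Marrow was microdissected into tumour-infiltrated areas (met) and adjacent tumour-free areas (non-met), and healthy BALB/c marrow served as control. CD31hi EMCNhi endothelial cells were sorted by flow cytometry from each area, with CD45+ and Ter-119+ haematopoietic cells gated out. This surface phenotype marks type H capillaries in healthy bone, and in met areas it says only how the cells were sorted. For RNA sequencing, low-input full-length cDNA was sequenced in 3 met, 6 non-met and 2 control libraries. The 9 libraries of burdened mice came from 4 pools of 1 to 4 mice and the controls from 2 further pools. Pool 2 gave met 1, non-met 2 and non-met 6, pool 3 gave met 2 and non-met 3, pool 4 gave met 3 and non-met 4, and pool 1 gave non-met 1 and non-met 5. Some non-met libraries therefore share mice, and P values apply to these libraries only. For Eef1a1, Eef2 and Rpl4 the weighted test used below (voomLmFit) gave 1 library up to 99.9% of its group's weight. Its SE and P for these genes therefore measure little of the spread between libraries.

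Each cytosolic ribosome joins a small subunit, which reads the mRNA, to a large subunit, which forms the peptide bond. A stalk of acidic proteins on the large subunit recruits the factors that drive elongation: the product of Eef1a1 delivers aminoacyl-tRNA, the exchange complex that contains the products of Eef1b2 and Eef1g reloads it with GTP, and the product of Eef2 moves the ribosome along the mRNA. Most of these genes give terminal oligopyrimidine (TOP) mRNAs, which start with a cytosine followed by a run of pyrimidines and whose translation is controlled as a class by mTORC1 through the binding protein Larp1. RNA counts measure the amount of these mRNAs and not their translation.

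The start of transcription is the part of these genes that sets the TOP class, so windows of 30 bases around annotated starts are shown, 10 bases before the start and 20 from it. Sequences are from the RefSeq annotation of GRCm38.p6, whose promoter table held 76 starts for 65 of the 88 members. Capitals mark the pyrimidine tract, read from the annotated first base on where that base and those after it met the pattern below, and otherwise as an unbroken run across the start, where there was one. Rpl15 (large subunit, chr14:18270967-18270996, minus strand), Rps10 (small subunit, chr17:27635225-27635254, minus), Rps6 (small subunit, the substrate of S6 kinase, chr4:86857348-86857377, minus), Rpl38 (large subunit, chr11:114668570-114668599, plus) and Rplp2 (stalk, chr7:141447641-141447670, plus) are shown as members with a C at the annotated first base followed by at least 4 pyrimidines. In each of them a pyrimidine also directly preceded that base.
Rpl15: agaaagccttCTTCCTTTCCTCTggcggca
Rps10: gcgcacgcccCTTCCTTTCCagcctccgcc
Rps6: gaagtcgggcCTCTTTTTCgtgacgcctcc
Rpl38: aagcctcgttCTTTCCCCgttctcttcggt
Rplp2: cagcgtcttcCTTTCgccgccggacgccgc

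The 3 members that passed the test in a comparison below are shown next: Eef1a1 (chr9:78481705-78481734, minus), Eef2 (chr10:81176621-81176650, plus) and Rpl4 (large subunit, chr9:64173377-64173406, plus). The tract of Eef1a1 ran from 5 bases before the annotated start to base 5 of the transcript, and in the other two no such tract began within 10 bases of the start.
Eef1a1: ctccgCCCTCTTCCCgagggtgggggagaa
Eef2: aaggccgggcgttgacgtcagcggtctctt
Rpl4: tttcctgtgggagcagccgggtagagagga

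Rps27 (small subunit, chr3:90213629-90213658, minus) and its near-copy Rps27rt (chr9:114982720-114982749, minus) are shown because reads divided unequally between them.
Rps27: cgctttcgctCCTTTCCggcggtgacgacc
Rps27rt: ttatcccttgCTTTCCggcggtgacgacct

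The pattern searched was a C at the annotated first base followed by at least 4 pyrimidines (C or T), on the transcribed strand. It was present in 15 of 65 member genes (23.1%) and in 3.01% of all 27025 genes with a promoter in the table. None of 69 genes for mitochondrial ribosomal proteins (Mrpl and Mrps), whose mRNAs are not of the TOP class, had it. When the tract was allowed to begin within 10 bases of the start, it was present in 58.5% of member genes, 44.9% of Mrpl and Mrps genes, 37.1% of the genes tested for expression and 34.4% of all genes. The letters CCGGAA, the core recognised by ETS factors, were searched on both strands of 300 bases (250 before the start and 50 from it) after the sequences had been seen. They were present in 34 of 65 member genes (52.3%), in 31.3% of the genes tested for expression, in 16.7% of all genes and in 58.0% of Mrpl and Mrps genes. The shared letters are a description of annotated starts, and start sites were not measured in these cells.

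Sequencing depth limited what could be read from single members. Total counts were 19539761 and 5029771 in the controls, 733342 to 7683451 in non-met and 2547520 to 8771860 in met libraries. A value of 3 reads, the smallest taken as detected, corresponded to 0.147 to 5.43 CPM, the usual scaling of reads to library size, here the TMM-scaled total of the tested genes. In all 11 libraries, 80 of the 88 members had reads, and the number of members with at least 10 reads ran from 48 in non-met 4, the shallowest library, to 88 in control 1. All 12 endothelial markers examined were detected, with a summed level of 11150 and 7848 CPM in control 1 and 2, 9141 to 15202 CPM in non-met and 12364 to 15017 CPM in met. In voomLmFit 3 of them (Pecam1, Cdh5 and Tie1) were called higher in met than in non-met, and against control 4 were higher (these and Emcn) and 1, Kdr, lower, while limma-trend called none of them. Of all genes voomLmFit called 0.276% higher in met than in non-met, and 0.686% higher and 0.511% lower against control. Transcripts of 16 granulocyte genes, 15 of them with 10 reads in some library, summed to 403 to 5279 CPM in non-met, 174 and 388 CPM in control and 95.5 to 207 CPM in met libraries. Of the 14 tested, limma-trend called 1 lower in met than in non-met (0.0167% of all genes in either direction) and voomLmFit none. In voomLmFit 9 of the 14 had an unadjusted P under 0.05 (7.24% of all genes). Osteolineage and stromal transcripts summed to 4101 and 10815 CPM in control, 1302 to 4185 in non-met and 491 to 2759 in met libraries. Of the 12 tested, voomLmFit and limma-trend each called 1 lower in met than in control (0.511% of all genes in voomLmFit). VoomLmFit also called 1 lower in non-met than in control (0.452% of all genes), and limma-trend none. Transcripts of monocytes and macrophages summed to 1603 and 1038 CPM in control, 601 to 1606 CPM in non-met and 354 to 1113 CPM in met. Of that list 7 of 10 genes had 10 reads in some library, while C1qa, C1qb and C1qc were at 0 reads in all. Megakaryocyte transcripts summed to 0 and 31.3 CPM in control, 0 to 57.7 CPM in non-met and 42.6 to 123 CPM in met. Of the 3 tested, Itga2b was called higher in met than in control by voomLmFit (adjusted P 0.0406) but not by limma-trend (0.702), and Gp9 and Gp6 had 0 reads in all libraries. Transcripts of mammary tumour epithelium summed to 0.831 and 19.5 CPM, 1.44 to 140 CPM and 11.1 to 71.6 CPM in the same order. None of the 5 tested passed, 4 of them lay higher in every met library than in both controls (8.43% of all genes did), and Krt5 had 0 reads in all libraries. The part of all these transcripts in the results below was not tested, and in sorted bulk RNA fewer cells of a type and less RNA per cell cannot be told apart.

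The share of the RNA held by the members overlapped between the groups. They took 1.32% and 1.63% of all counts in the controls, 1.24%, 1.51%, 2.12%, 1.43%, 1.71% and 1.87% in non-met 1 to 6, and 1.5%, 1.54% and 2.21% in met 1 to 3. The group means were 1.47% ± 0.220 (SD, n = 2), 1.65% ± 0.320 (SD, n = 6) and 1.75% ± 0.399 (SD, n = 3), and the 3 ranges overlapped. The highest library of each burdened group, non-met 3 and met 3, exceeded both controls by more than the controls differed from each other. Mitochondrially encoded transcripts, which share the same total, ranged from 4.33% to 17.8% over the libraries. They were highest in non-met 1, the library with the lowest member share, and lowest in met 3, the library with the highest. Control 1, next lowest in member share, held 5.40%, and non-met 3, next highest, held 10.6%, so the shares did not run opposite throughout.

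**Figure D1:**
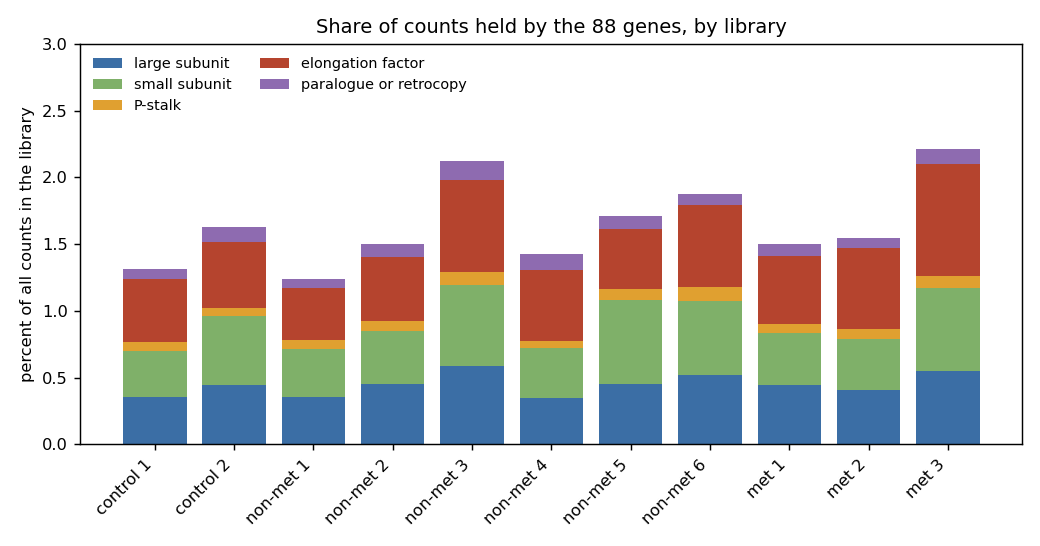
Share of all counts held by the members in each library, in percent, stacked by role (large subunit, small subunit, stalk, elongation factors, paralogues) with libraries ordered by group. Shares run from 1.24% in non-met 1 to 2.21% in met 3, and the ranges of the 3 groups overlap.

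By role, the large subunit held 0.400%, 0.455% and 0.470% of counts in control, non-met and met on average, and the small subunit 0.432%, 0.484% and 0.463%. The elongation factors, although only 4 genes, held as much as either subunit, with 0.486%, 0.528% and 0.650%. Eef1a1 had the most reads of any member in every library, with 16.0% to 23.4% of the reads of the set. Together Eef1a1 and Eef2 held 30.6% ± 3.85 (SD, n = 2) of member reads in control, 28.2% ± 2.86 (SD, n = 6) in non-met and 34.3% ± 1.96 (SD, n = 3) in met. The lowest met library, at 32.1%, lay just above the highest non-met library, at 32.0%.

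Levels per length spanned 2171-fold between the highest member, the elongation factor Eef1a1, and the lowest, Rpl21. Rpl21 had 0 reads in 3 libraries, so this fold depends on how libraries at 0 are treated. Values here are log2 RPKM, the CPM of a gene divided by the kilobases of its summed exons, averaged over the 11 libraries with the SD over libraries. Eef1a1 was highest at 10.93 ± 0.32, followed by Rplp1, a stalk protein, at 9.97 ± 0.48 and Rps15, a small-subunit protein, at 9.68 ± 1.14. Rps27rt, Rpl41, Rpl8, Rpl4 and Eef2, among the next highest members, lay between 9.53 and 9.11. The median member was at 5.95, against 2.47 for mitochondrial ribosomal proteins and 1.81 for all genes tested. The gap between Rplp1 and Rps15 was smaller than the SD of either gene, and so were the gaps between these 5 genes, whereas Eef1a1 exceeded Rplp1 by more than both SDs.

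The lowest members were Rpl21 at −0.15 ± 2.07 and Rpl35a at 0.74 ± 1.85, both of the large subunit, and the retrocopy Rps4l at 2.44 ± 2.75. Rpl21 had 0 reads in non-met 2, non-met 3 and met 1, and reached 24.4 CPM in met 2. Rpl35a had 0 reads in 4 libraries and exceeded 1 CPM in non-met 1 (16.4 CPM) and met 3 (6.77 CPM). The largest SDs over libraries belonged to the paralogues Rpl22l1, Rps4l and Rps27l. Rpl22l1 read 51.2 and 45.1 CPM in control, 0.721, 9.29, 0.933, 132, 0 and 187 CPM in non-met 1 to 6 and 10.6, 4.93 and 41.6 CPM in met, so that the non-met libraries held both its lowest and its highest value. Rps27l, a target of p53, read 27.9 and 44.2 CPM in control, from 0 to 98.6 CPM in non-met and from 45.3 to 78.4 CPM in met.

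**Figure D2:**
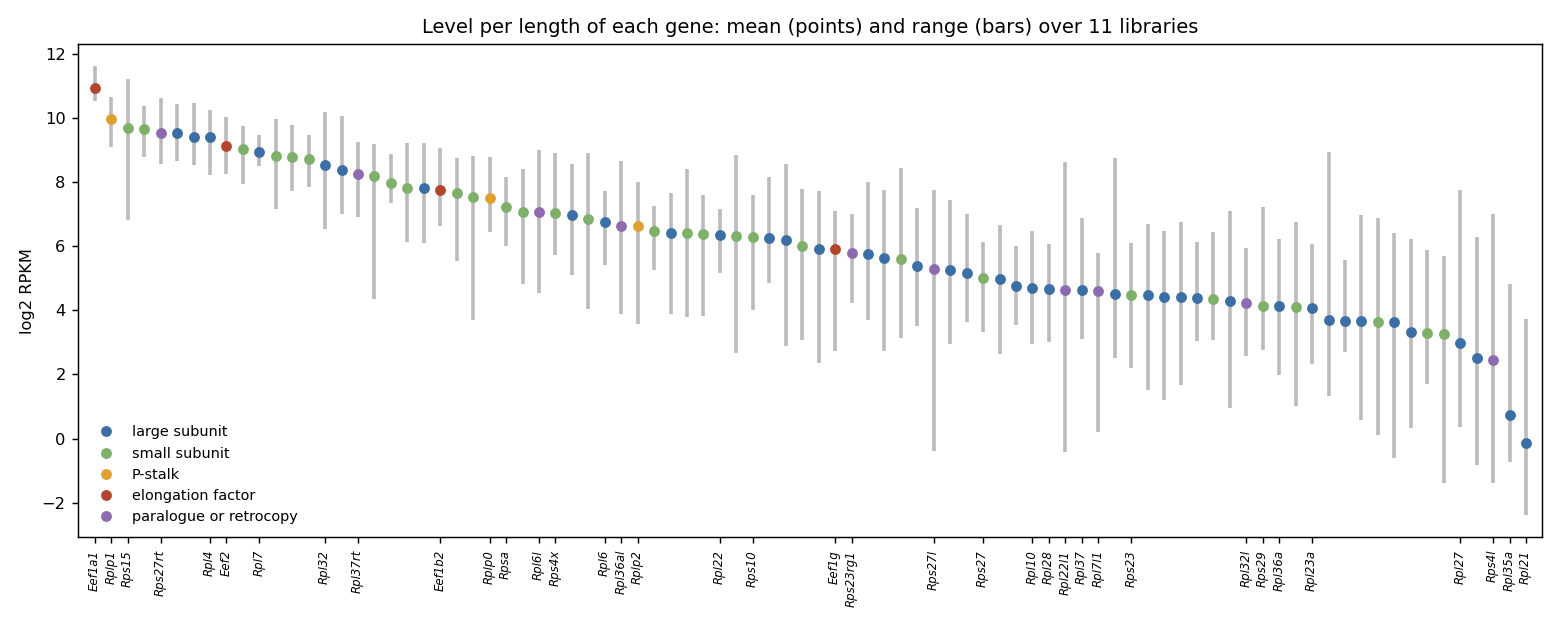
Mean log2 RPKM of the members over 11 libraries, ordered by level and coloured by role, with grey bars for the range over libraries and names for a part of the members. Eef1a1 stands at 10.93 and Rpl21 at −0.15, and most of the long bars belong to genes in the lower part of the order.

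Low level and library-to-library spread went together. The SD of log2 CPM within groups had a median of 1.18 over the 88 members and ran from 0.305 for Rpl7 to 3.10 for Rpl22l1. For the 27 members with a mean log2 CPM of at least 7 the median SD was 0.647, and for the other 61 it was 1.52. The corresponding medians over all genes tested were 0.716 and 2.70.

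Repeated sequence bears on what these levels measure. Ribosomal protein genes have many processed pseudogenes, and reads that fit a gene and its copy equally cannot be placed with certainty. In the annotation, 701 pseudogenes shared at least 20% of their 31-base words with a member, and 100 of them had a row of their own in the table. The copy rows held 23.2% to 33.7% as many reads as the members themselves, depending on the library. Copy rows existed for 43 members, and in 21 of these they held more reads than the member. Rpl26 had 750 reads in all libraries against 23492 in its copies, Rpl23a 794 against 18851, Rpl29 523 against 9174, Rpl24 1078 against 16878 and Rpl30 756 against 10059, all of the large subunit. Rpl23 had 7428 against 39042. Eef1a1 was the opposite case, with 209097 reads against 10003. Values of the former genes in this report are therefore those of the reads assigned to the gene's own row, and are uncertain as measures of the mRNA.

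**Figure D3:**
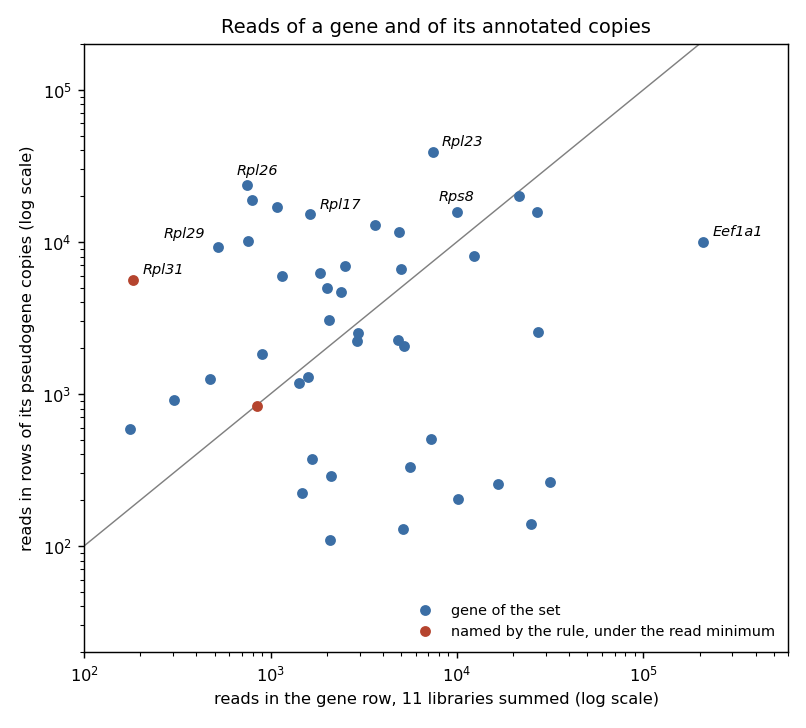
Reads summed over 11 libraries in each gene's own row (horizontal, log scale) against reads in the rows of its annotated pseudogene copies (vertical, log scale), with a line of equality. The 21 members above the line, such as Rpl26 with 750 reads against 23492, have more reads in copies than in their own row, and Eef1a1 lies far below it. Rpl31 and Rps13, drawn in red, were below the read minimum and are not members.

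The share of a transcript's 75-base windows (the read length) that occur in no other annotated transcript was computed for 84 members. It ran from 1.48% for Rps27 to 100% for Rps3, and was 97.4% for Eef2, 91.5% for Rpl4 and 58.3% for Eef1a1. Median log2 RPKM was 4.84 in 16 members under 25% unique, 6.19 in 17 members from 25% to 50%, 5.95 in 30 from 50% to 75% and 7.76 in 21 above 75%. Across the 84 genes, which share libraries and are not independent replicates, Spearman's rho of level with the unique share was 0.338 and with the number of pseudogene copies −0.487.

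Paralogue pairs differed in level in both directions. On the log2 RPKM scale, Rps27rt exceeded Rps27 by 4.52 ± 1.20 (SD over 11 libraries) and Rpl37rt exceeded Rpl37 by 3.63 ± 0.90, each in 11 of 11 libraries. Rpl36al exceeded Rpl36a by 2.51 ± 1.43 in 10 of 11 libraries and Rps23rg1 exceeded Rps23 by 1.31 ± 1.22 in 9. For Rpl6l against Rpl6 (0.32 ± 1.43) and Rps27l against Rps27 (0.29 ± 2.85) the difference was smaller than its SD. Rpl7l1, a relative with a role in ribosome assembly, lay below Rpl7 by 4.34 ± 1.68 and Rpl32l lay below Rpl32 by 4.28 ± 1.72, both in all 11 libraries, and Rps4l lay below Rps4x in 10 of 11. Rpl22l1 and Rpl22, which bind RNA in a mutually regulated pair, changed order between libraries, with Rpl22l1 higher in 4. Only 1.48% of the windows of Rps27 were unique, so the counting could have split or moved reads between it and Rps27rt. Of the windows of Rpl37, 74.2% were unique, and the share was not computed for Rpl37rt. It was 9.67% for Rps27rt, 15.4% for Rpl36a and 38.7% for Rpl36al, so the same limit applies to them.

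The comparison of met with non-met addresses what tumour infiltration of the marrow goes with in its endothelium. Eef1a1 and Eef2 rose in the weighted test used in the study (voomLmFit, adjusted P under 0.05 over 11949 genes), and no member fell. Of all genes tested, 0.276% were called higher and 0.142% lower. The median member changed by 0.10 and the median gene by 0.08 on the log2 scale, and 52 of 88 members (59.1%) and 51.8% of all genes had a fold change above 0. Members above 0 were 32 of 88 in edgeR's quasi-likelihood test, 26 of 88 in DESeq2 and 28 of 86 with the mouse pool as a fixed term. The member median moved with single met libraries and was 0.308 without met 1, 0.0033 without met 2 and −0.179 without met 3, where the median gene was at 0.36, −0.36 and −0.28. An unweighted test of log2 CPM (limma-trend) called none of the members in this comparison, and called 0.0167% of all genes. At an unadjusted P under 0.05 it had 1 member (4.7% of all genes) and voomLmFit 4 of 88 (4.55%, against 7.24% of all genes).

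Eef2, the translocation factor (chr10:81176631-81182509), read 1547 and 938 CPM in control, 1046, 1540, 2687, 2515, 1366 and 1553 CPM in non-met 1 to 6 and 1832, 1920 and 3190 CPM in met 1 to 3. The 3 met libraries lay above 4 of the 6 non-met libraries, and non-met 3 and 4 lay above met 1 and 2. The log2 CPM means were 10.23 ± 0.51 (SD, n = 2) in control, 10.72 ± 0.53 (SD, n = 6) in non-met and 11.13 ± 0.44 (SD, n = 3) in met. The difference of met from non-met was 1.12 ± 0.15 (SE) in voomLmFit with an adjusted P of 0.000117 and 0.41 ± 0.26 in limma-trend with an adjusted P of 0.911. In voomLmFit met 3 carried 97.0% of the weight of its group for this gene, and non-met 2 and non-met 1 carried 69% and 23.4% of theirs.

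Eef1a1 (chr9:78478453-78481724) read 2642 and 3099 CPM in control, 3027, 3309, 5554, 3546, 2706 and 3508 CPM in non-met and 3570, 3748 and 4724 CPM in met. The met libraries lay above 5 of 6 non-met libraries and below non-met 3. The log2 CPM means were 11.48 ± 0.16 (SD, n = 2), 11.78 ± 0.36 (SD, n = 6) and 11.96 ± 0.22 (SD, n = 3) in that order. Met exceeded non-met by 0.26 ± 0.03 (SE) with an adjusted P of 8.58e-05 in voomLmFit and by 0.18 ± 0.16 with an adjusted P of 0.911 in limma-trend. Non-met 2 carried 99.9% of the non-met weight. Within pools of the same mice, where met was compared with the mean of the pool's non-met libraries, Eef1a1 differed by 0.07, −0.57 and 0.41 in pools 2, 3 and 4 on the log2 scale and Eef2 by 0.24, −0.49 and 0.34, so that neither had 1 direction in all 3 pools. With the pool as a fixed term the voomLmFit difference of Eef1a1 was −0.40 with an adjusted P of 0.000441 and that of Eef2 −0.20 with an adjusted P of 1.00, and without met 3 neither gene passed.

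**Figure D4:**
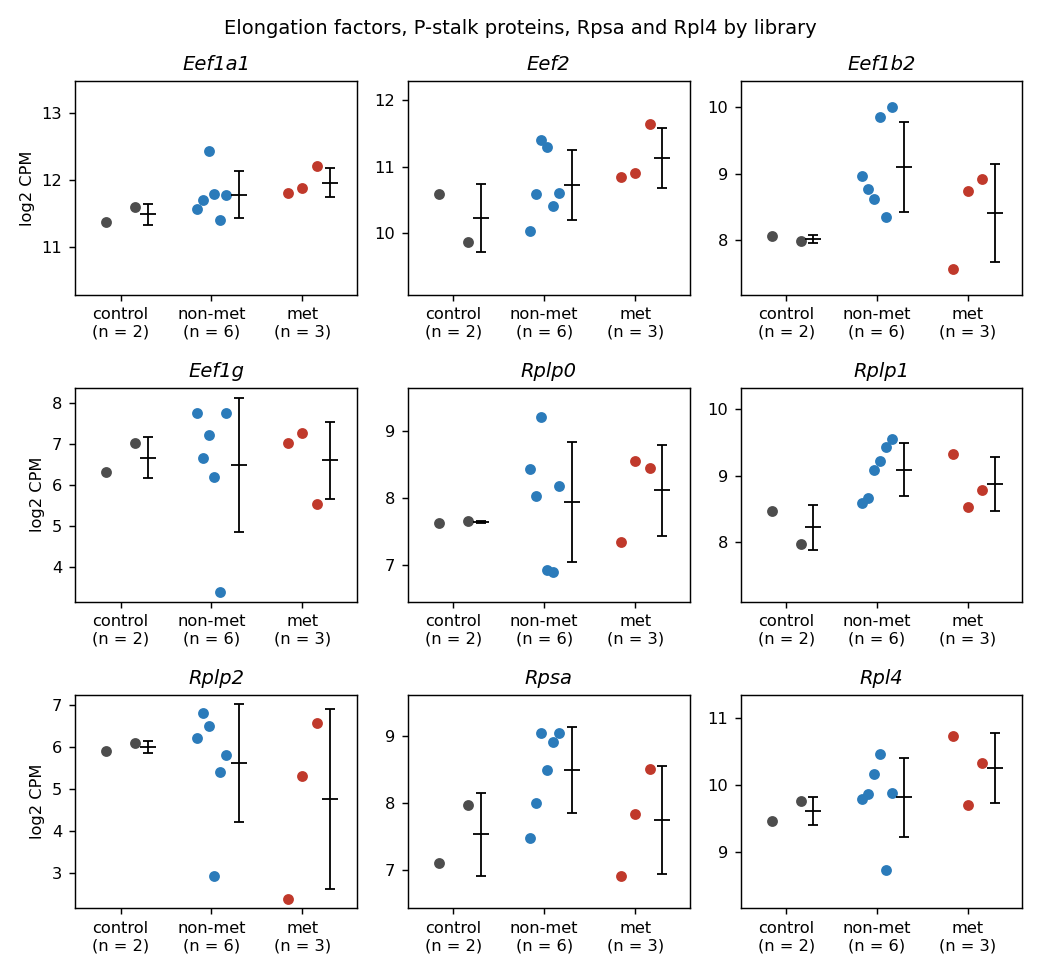
Log2 CPM of the 4 elongation factors, the 3 stalk proteins, Rpsa and Rpl4 in each library (points) by group, with the group mean and 1 SD in black. For Eef1a1 and Eef2 the met libraries overlap the upper non-met libraries, and both controls lie below the non-met mean of 11.78 and 10.72.

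The other factors and the stalk did not pass in any comparison. Eef1g, which scaffolds the exchange complex, read 78.5 and 128 CPM in control, 10.1 to 214 CPM in non-met and 45.5 to 153 CPM in met. Rplp0, which anchors the stalk, read 198 and 201 CPM in control, 118 to 590 CPM in non-met and 161, 376 and 348 CPM in met. Rplp2 read 59.4 and 67.8 CPM in control, 7.24 to 112 CPM in non-met and 4.85, 39.0 and 95.1 CPM in met, and Rpsa, a small-subunit protein that is also known as the laminin receptor, 136 and 251, 176 to 528 and 119, 227 and 364 CPM. In each of these 4 genes the groups overlapped.

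Rps4l was the 1 member whose met and non-met libraries did not overlap, and of all genes 1.54% were higher and 0.444% lower in every met library. RefSeq annotates it as a transcribed pseudogene, and it resembles the X-linked small-subunit gene Rps4x. It had 410 and 52 reads in control, 45, 0, 24, 2, 0 and 0 reads in non-met and 271, 96 and 97 reads in met, so that 3 non-met libraries had no read. The voomLmFit difference of met from non-met was 3.89 ± 1.65 (SE) on the log2 scale with an adjusted P of 0.603, a fitted value that depends on how libraries at 0 are treated. Met exceeded non-met in all 3 pools in 6 of 88 members (Rpl23a, Rps19, Rps2, Rps20, Rps27a and Rps4l; 10.6% of all genes did so), and lay below in all 3 in 12 members (8.85% of all genes). In pools 2 and 3 most members were lower in met than in non-met (51 of 88, median −0.27, all genes −0.23, and 65 of 88, median −0.93, all genes 0.00), and in pool 4 most were higher (59 of 88, median 0.73, all genes 0.20).

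Against control, Eef2 and Rpl4 rose in met and no member fell in voomLmFit, where 0.686% of all genes were called higher and 0.511% lower. Limma-trend called no member and 0.0753% of all genes. At an unadjusted P under 0.05 it had 2 members (4.96% of all genes) and voomLmFit 8 of 88 (9.09%, against 14.1% of all genes). Of the members, 57 of 88 (64.8%) had a fold change above 0 against 48.0% of all genes, with medians of 0.36 and −0.09. That order of the medians depended on the fit: without control 1 they were 0.297 for members (51 of 88 above 0) and 0.319 for all genes, and with no count filter 0.363 and 0.48. Without met 3 the member median was 0.169, with 49 of 87 above 0, and that of all genes −0.12. Eef2 exceeded control by 1.02 ± 0.04 (SE) with an adjusted P of 3.65e-16 in voomLmFit and by 0.89 ± 0.33 with an adjusted P of 0.744 in limma-trend, and its 3 met libraries lay above both controls. Control 1 carried 99.9% of the control weight, and without it the difference was 1.82 and Eef2 did not pass (adjusted P 0.478). Without met 3 the difference was 0.30 and it did not pass either (adjusted P 0.454).

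Rpl4, a large-subunit protein that lines the exit tunnel (chr9:64173387-64178562), read 707 and 865 CPM in control, 885, 934, 1143, 1413, 425 and 944 CPM in non-met and 1704, 833 and 1287 CPM in met. Met 2 lay below control 2, so the groups overlapped. The means were 9.61 ± 0.21 (SD, n = 2), 9.82 ± 0.59 (SD, n = 6) and 10.26 ± 0.52 (SD, n = 3) log2 CPM, and met exceeded control by 0.75 ± 0.08 (SE) with an adjusted P of 2.32e-06 in voomLmFit and by 0.64 ± 0.41 with an adjusted P of 1.00 in limma-trend. Met 3 carried 79.1% of the met weight and control 1 98.6% of the control weight. The call ended without met 3 (0.41, adjusted P 0.202), without control 1 (0.55, adjusted P 0.317) and with only the 2 groups in the fit (0.53, adjusted P 0.387).

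In 18 members (20.5%) every met library lay above both controls, and in 3 (3.41%) every met library lay below, against 8.43% and 12.3% of all genes. These shares depend on level. At a mean log2 CPM of at least 7, 10 of 27 members lay above and 0 below, against 285 and 102 of 1183 genes. Under that level 8 of 61 members lay above and 3 below, against 722 and 1368 of 10766 genes. The higher members included the elongation factors Eef1a1 and Eef2, the stalk protein Rplp1 and 6 small-subunit proteins. Rpl23a, Rpl27 and Rpl32l had the largest folds among them at low levels. Rpl23a read 7.38 and 2.48 CPM in control and 9.69, 29.0 and 37.3 CPM in met, and Rpl32l 11.8 and 8.32 CPM against 36.1, 20.8 and 35.2 CPM. Rpl27 read 0.587 and 0.708 CPM in control and 1.32, 34.5 and 0.918 CPM in met, so 2 of its met libraries were within 1 CPM of control. The 3 lower members were Rpl22l1, Rpl28 and Rps27, and Rps27 read 23.4 and 27.4 CPM in control and 20.3, 12.9 and 9.75 CPM in met. All 3 are uncertain as measures of the mRNA. Copy rows held 3042 reads against 2069 for Rpl22l1 and 5978 against 1148 for Rpl28, and 1.48% of the windows of Rps27 were unique. The same limit holds for the higher member Rpl23a, with 18851 reads in copies against 794. None of Rpl23a, Rpl27, Rpl32l and Rps27 passed the test, and the smallest adjusted P among them was 0.61, for Rpl23a.

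The comparison of non-met with control addresses tumour-free marrow of burdened mice. No member passed in voomLmFit, with 8 of 88 (9.09%, against 17.0% of all genes) at an unadjusted P under 0.05, and none passed in limma-trend (0 at that level, against 4.47% of all genes), in edgeR's quasi-likelihood test or in DESeq2. Of all genes, 0.184% were called higher and 0.452% lower by voomLmFit and 0.067% in either direction by limma-trend. The members' median difference was 0.32 against −0.33 for all genes, and 56 of 88 (63.6%) were above 0 against 44.1%. Without control 1 the medians were 0.0388 for members (46 of 88 above 0) and 0.199 for all genes, and with no count filter 0.331 and 0.561, so the order of members and all genes turned in both. This comparison and the previous one use the same 2 control libraries, so a deviation of those libraries moves both.

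Non-met and control libraries did not overlap in 9 members that were higher in non-met (10.2%, against 1.26% of all genes) and in 2 that were lower, Rpl10 and Rps4l (2.27%, against 5.03%). At a mean log2 CPM of at least 7, 5 of 27 members were higher and 0 lower, against 77 and 30 of 1183 genes. Under that level 4 of 61 members were higher and 2 lower, against 74 and 571 of 10766 genes. The higher members included Eef1b2, Rplp1, Rpl8, Rpl27, Rpl41, Rps4x, Rps10 and Rps29. Eef1b2, the nucleotide exchange subunit (chr1:63176831-63180486), read 268 and 253 CPM in control, 501, 436, 394, 923, 326 and 1022 CPM in non-met and 190, 427 and 482 CPM in met. Met 1 was the lowest library of all, and the other 8 burdened libraries lay above both controls. Its difference of non-met from control was 0.83 ± 0.28 (SE) with an adjusted P of 0.132. Rplp1 (chr9:61913283-61914510) read 353 and 253 CPM in control, 385, 407, 543, 597, 689 and 746 CPM in non-met and 637, 370 and 438 CPM in met, so every burdened library lay above both controls. Its weighted voomLmFit difference of non-met from control was 0.46 ± 0.26 (SE) with an adjusted P of 0.354. Rps10 read 23.1 and 17.0 CPM in control and 29.2 to 109 CPM in non-met, and Rps29, at 2.49 and 2.30 CPM in control, read 2.65 to 57.5 CPM in non-met.

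Members were also divided by level. Among the 27 members with a mean log2 CPM of at least 7, a level chosen after the values were seen, the voomLmFit difference was above 0 in 26 for non-met against control, in 24 for met against control and in 15 for met against non-met, with medians of 0.51, 0.74 and 0.06. Of the 1183 genes at that level 55.4%, 60.6% and 58.9% were above 0, with medians of 0.10, 0.20 and 0.13. The 61 less abundant members were above 0 in 30, 33 and 37, with medians of −0.07, 0.08 and 0.11. Of the 10766 genes under that level 42.8%, 46.6% and 51.0% were above 0, with medians of −0.53, −0.19 and 0.05. Centred on each gene's mean, the median log2 CPM of the 27 was −0.42 and −0.25 in control 1 and 2, −0.15, 0.01, 0.68, 0.22, 0.48 and 0.14 in non-met 1 to 6 and −0.09, −0.20 and 0.40 in met 1 to 3. Both controls were lowest on this scale. The 1183 genes at that level had medians of 0.04 and −0.18 in the controls, so that relative to them control 1 was lowest (−0.46), whereas control 2 (−0.07) lay above met 2 (−0.40), met 1 (−0.31), non-met 2 (−0.18) and non-met 1 (−0.09).

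In unweighted means the same 27 members were higher in non-met than in control in 25 with a median difference of 0.49 (all genes at that level 0.08), in 22 without control 1 (median 0.44, all 0.17) and in 27 without control 2 (0.56, all −0.06). Leaving out non-met 4, 5 and 6, the 3 shallowest libraries, gave 26 of 27 and 0.44 (all 0.20). Met was higher than control in 22 of 27 with a median of 0.45 (all 0.23), without met 3 in 16 of 27 with 0.22 (all 0.29) and without control 1 in 18 of 27 with 0.36 (all 0.33), so that the excess over other genes in that comparison rested on these 2 libraries. Met was higher than non-met in 10 of 27, with a median of −0.22 (all 0.16), a direction opposite to the weighted median of 0.06.

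**Figure D5:**
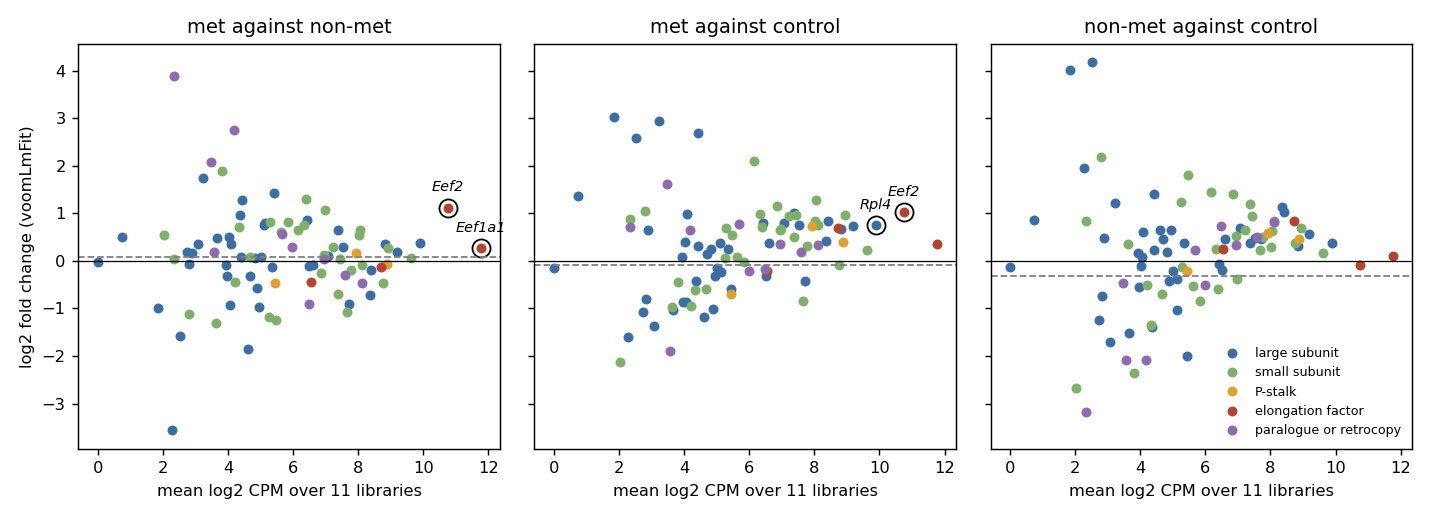
VoomLmFit log2 fold change of each member against its mean log2 CPM for the 3 comparisons, coloured by role, with rings and names for those past the threshold and a dashed line at the median of all genes tested. Members above 7 log2 CPM lie mostly above 0 in both comparisons with control (24 and 26 of 27) and around 0 for met against non-met, and the spread widens at low levels.

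Genes that act with the ribosome were described by fixed lists. Of 41 translation initiation factors, none passed for met against non-met or for non-met against control, and 2 rose in met against control in voomLmFit (0.686% of all genes did): Eif4g2, a scaffold for internal and non-canonical initiation, by 0.27 with an adjusted P of 0.0318, and Pabpc1, the poly(A)-binding protein, by 0.91 with an adjusted P of 0.0495. Limma-trend gave them adjusted P values of 1.00 and 0.795. At an unadjusted P under 0.05 there were 2, 6 and 8 of the 41 (4.88%, 14.6% and 19.5%, beside 7.24%, 14.1% and 17.0% of all genes). The list medians were 0.27, −0.07 and −0.24 for met against non-met, met against control and non-met against control. Of 22 other TOP mRNAs, Pabpc1 was the one that passed, in met against control, and the medians were 0.26, 0.17 and −0.07. Rack1, a scaffold on the small subunit, differed by 1.03 between non-met and control with an adjusted P of 0.061 in voomLmFit. Limma-trend called no gene of any list in that comparison. Of 8 tested ribosomal proteins outside the rule and other elongation factors, none passed in any comparison by either test. Their medians were 0.34, 0.08 and 0.09.

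None of 52 ribosome biogenesis genes, 33 genes of the mTORC1 pathway and TOP mRNA control, 20 tested genes of the integrated stress response and ribosome quality control, and 74 tested mitochondrial ribosomal proteins passed in any comparison by voomLmFit or limma-trend. Medians for non-met against control were −1.24 in ribosome biogenesis and −1.33 in mitochondrial ribosomal proteins, below the −0.33 of all genes and the 0.32 of the members. Genes with a mean log2 CPM under 7 had a median of −0.53 there. For met against control the 2 medians were −0.13 and −0.80 (all genes −0.09), and for met against non-met 0.27 and 0.01 (all genes 0.08). For mitochondrial ribosomal proteins 2, 9 and 13 genes (2.7%, 12.2% and 17.6%) had an unadjusted P under 0.05 in the 3 comparisons, against 7.24%, 14.1% and 17.0% of all genes. Larp1, which holds TOP mRNAs back when mTORC1 is inactive, read 6.4 and 7.2 log2 CPM in control, 5.3 to 7.7 in non-met and 1.8 to 6.1 in met, with adjusted P values of at least 0.62.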

How the data were processed

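RNA was measured in 11 libraries of sorted endothelial cells. The authors mapped paired reads of 75 bases with Rsubread (genome build mm10), and featureCounts assigned them to the Entrez genes of its in-built annotation. The submitters' processing notes name featureCounts without a version. The deposited values are unnormalised read counts, and the series table was identical to the 11 tables of single libraries. Strand use and the treatment of reads with several matches are not given in the sources used here. Symbols came from RefSeq (GRCm38.p6, the build of mm10) for 25275 of 27179 rows and from GENCODE M21 for 18. The tests left out 1886 unnamed, 35 ribosomal RNA and 1800 predicted-gene rows, which held 1.94% to 15.7% of a library's counts. The authors also removed ribosomal genes without defining them, and ribosomal protein genes were kept here.

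Counts were filtered with filterByExpr, which left 11949 genes with all 88 members among them, and scaled by TMM. As the authors state, voomLmFit with sample weights was the test (edgeR 4.0.16, limma 3.58.1, R 4.3.3), with 1 model of 3 groups and Benjamini-Hochberg adjustment over all genes at 0.05. A prior count of 2 was added for the log2 CPM of each library, and limma-trend was fitted to these values. RPKM used the summed exon length of each row. Scripts were tested on simulated counts. Pseudogene copies and unique windows were searched in GENCODE M21 transcripts with Python 3.11.15. Alternatives were edgeR's quasi-likelihood test, DESeq2 1.42.0, other scalings and filters, the mouse pool as a block, pseudogene reads added to members, and leaving out libraries.

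Replicate numbers do not pair the libraries, whereas libraries of 1 mouse pool come from the same animals. The pool was therefore the block in the alternatives that had a block. The main tests had none and treated the libraries as independent. The members and lists were chosen with earlier results of these data known. Named genes were the stalk proteins, Rpsa, the elongation factors, paralogues with their main forms, up to 5 called members per direction and up to 3 non-overlapping members with the largest fold per comparison, the extremes of level and spread, and called genes of each list. Rpl7, Rpl8, Rpl24, Rpl26, Rpl29, Rpl30, Rpl38, Rps6 and other members named in counts or for their copies or sequences were chosen after their values were seen. Rack1 and Larp1 were chosen likewise. A few members are not reported by name here.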

Additional observations from a re-analysis of the deposited data

Results flagged for a closer look

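In the 6 non-met libraries, 47 values of members and of sums over members were examined for 1 library far from the other 5, by a criterion that chance meets in about 1 group in 20, and 4 met it. Rplp2, a stalk protein, was at 2.925 log2 CPM in non-met 4, the shallowest library, against 5.40 to 6.81 in the others. Eef1g, of the exchange complex, was at 3.383 in non-met 5 against 6.18 to 7.75. Rpl7l1, a paralogue of Rpl7, was at 1.596 in non-met 6 against 5.65 to 7.16. Rpl35a, of the large subunit, was at 4.067 in non-met 1 against −1.49 to −0.34 in the others, which had few or no reads. The first 3 of these libraries are the 3 shallowest of all, and the part of depth in these values was not tested.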

How the results depend on the processing

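For met against non-met, the 2 calls (Eef1a1 and Eef2) became 0 with edgeR and with limma-trend and 1 with DESeq2, which called Rpl38 lower, a low-level member. Of 11949 genes these called 17, 2 and 326, against 50 in voomLmFit. Leaving out 1 library gave 0 to 2, with 0 without met 3 (16 of 11664 genes). The median fold change of members (0.0986) became −0.228 with edgeR and −0.379 with DESeq2. It was −0.0205 with RLE size factors and −0.0544 with the libraries of a pool summed. The cause was not tested.

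With the mouse pool as a fixed block, fitted without the controls, 1 of 86 members and 27 of 9437 genes were called in that comparison, the member being Eef1a1 with a lower value in met (−0.4049, adjusted P 0.000441). The median of members was −0.395, and Eef2 was at −0.2019 (adjusted P 1.00). With the pool as a random block 2, 2 and 0 members were called in the 3 comparisons, and these were the same members as in the fit without the block.

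For met against control, the 2 calls (Eef2 and Rpl4) became 0 with edgeR, DESeq2 and limma-trend, 6 without sample weights, 4 with no count filter and 4 with all pseudogene-copy reads added, an alternative chosen after seeing the data. Calls over all genes moved too, from 143 of 11949 to 10, 228, 9 and 274, to 429 of 15936 and to 141 of 11934. Leaving out 1 library gave 0 (met 3, 36 of 11664 genes) to 5 (control 2, 293 of 14289; non-met 3, 164 of 11780; met 2, 91 of 11710), and 1 without control 1 (69 of 14065). For non-met against control, the 0 calls became 1 with the libraries of a pool summed (Eef1a1), with the 3 shallow libraries left out (Eef1a1, chosen after seeing the data), with copy reads added (Rpl13a), and without control 1, with 33, 33, 76 and 96 calls over all genes against 76. Without control 1 Eef1a1 was at −0.0412 instead of 0.098 (adjusted P 2.737e-05). Without control 2 it was at 0.2579. Leaving out 1 library moved that comparison's member median between 0.0388 and 0.443. Over 27 or 28 alternatives, adjusted P ran from 1.75e-33 to 1.00 for Eef1a1 and 9.42e-08 to 1.00 for Eef2 in met against non-met, and from 2.16e-30 to 0.886 for Eef2 and 4.68e-11 to 1.00 for Rpl4 in met against control. They passed with the same direction in 23, 23, 22 and 20 of them, and Eef1a1 passed with the opposite direction in 1, the fixed block.

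With copy reads added, the members' share of counts was 1.89%, 2.13% and 2.24% in control, non-met and met, and without mitochondrial, ribosomal RNA and predicted rows in the denominator it was 1.6%, 2.05% and 1.93%, so that non-met lay above met, in the opposite order to the main 1.65% and 1.75%. With scaling by library size alone, the median of all genes was −0.54 for non-met against control in place of −0.33, and that of members 0.09 in place of 0.32. The number of control libraries, 2, pools that share mice and the shallow non-met libraries 4, 5 and 6 limit the precision.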
